A study of Arabidopsis thaliana with 6 samples.

Results

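The genes described here encode structural proteins of the plant cytoskeleton and proteins that bind it. They were chosen by symbol: a probe set was taken when the array annotation paired it with exactly 1 gene whose symbol starts with IQD, TRM, NET, TUB, TUA, MAP65, ACT or ADF followed by a digit or a hyphen. This gave 49 genes, each with 1 probe set, of the 13356 genes with a named probe set on an array of 22810 probe sets: 2 alpha-tubulins (TUA), 5 beta-tubulins (TUB), 2 actins (ACT), 10 NETWORKED proteins (NET), 15 IQ67 domain proteins (IQD) and 15 TRM genes. MAP65 and ADF had 0 genes with such a probe set, so those families are not analysed here. Probe sets without a single gene name, 503 with several genes and 8730 not listed in the annotation, may hold further tubulins and actins.

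The arrays measured RNA from vegetative shoot apices of Arabidopsis thaliana, taken from 7-day-old plants grown in short days. Of 6 arrays, 2 were from Columbia plants carrying the empty pML_Bart plasmid (vector), 2 from plants overexpressing the microRNA miR164b and 2 from plants overexpressing miR172a, both in the Col-0 background. The promoter that drives either microRNA, the number of independent transformants and whether plants were pooled are not given in the labels. Nor do they say whether replicates are separate plants or cultures, so p-values here reflect variation among these arrays that may be technical only.

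Microtubules are hollow filaments of alpha- and beta-tubulin pairs. In growing plant cells they lie under the plasma membrane, where they guide cellulose synthesis, and at division they form the preprophase band, the spindle and the phragmoplast. IQD proteins bind calmodulin and many of them decorate microtubules, and TRM proteins (TON1 Recruiting Motif) bring the TON1 and phosphatase module that organizes the cortical array and the preprophase band. Actin filaments carry organelles and vesicles, and NET proteins link them to membranes. In a shoot apex these systems serve both dividing meristem cells and expanding leaf primordia.

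Levels below are the deposited scaled intensities, given for replicates 1 and 2 in that order or as mean ± SD (n = 2). Differences are given with their standard errors after the transform log2(intensity + 16), and adjusted p is from limma with Benjamini-Hochberg adjustment over 22746 probe sets, with a threshold of 0.05. Since probe sets differ in brightness for reasons other than transcript number, no gene's level is set against that of another. In bulk tissue, fewer cells of a type and less RNA per cell cannot be told apart.

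TUB1 (AT1G75780), a beta-tubulin gene known for transcripts that light lowers in seedlings, was the member that rose in both lines. Its intensity was 258.3 and 284.3 with vector, 579.9 and 606.1 with miR164b, and 594.4 and 664.3 with miR172a. All 4 arrays of the overexpressing lines lay above both vector arrays, and the arrays of the lines overlapped each other. The log2 difference was 1.09 ± 0.10 in miR164b (adjusted p = 0.012) and 1.17 ± 0.10 in miR172a (adjusted p = 0.006). Between the lines it was -0.08, with a 95% interval from -0.33 to 0.16 and an adjusted p = 0.689. Both comparisons with vector use the same 2 vector arrays.

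The 25S rRNA control was low on miR172a replicate 1 (355) and high on miR172a replicate 2 (3462), closer to the vector arrays (4070 and 4093). Without miR172a replicate 1 the log2 difference of TUB1 was 1.25 (adjusted p = 0.045), and without miR172a replicate 2 it was 1.09 (adjusted p = 0.053). Each of these values rests on 1 miR172a array. A fit with the 25S control level, high or low, as a term takes the effect of that level from the 2 miR172a arrays alone. In miR172a against vector it is therefore the same fit as the one without miR172a replicate 1, and between the lines the same as the one without miR172a replicate 2, so it adds no separate check there, and the part of the 25S difference in the TUB1 rise was not tested further. In miR164b, where both arrays had low controls (443 and 529), the TUB1 call was lost without vector replicate 1 (adjusted p = 0.092), vector replicate 2 (adjusted p = 0.071), miR164b replicate 1 (adjusted p = 0.127) or miR164b replicate 2 (adjusted p = 0.142), with log2 differences from 1.02 to 1.15. It was also lost with an offset of 1 (adjusted p = 0.053) and with the 25S control level as a term in the fit (log2 1.24, adjusted p = 0.231).

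**Figure D1:**
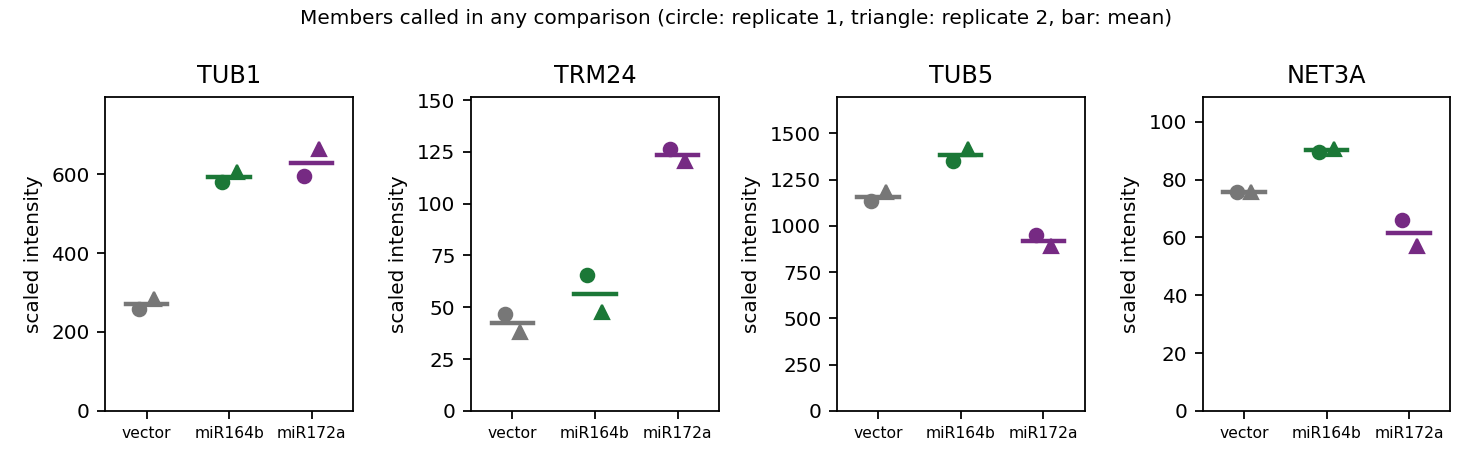
Scaled intensity (linear axis from 0) of the 4 members past the threshold in any comparison, by group, with replicate 1 as a circle, replicate 2 as a triangle and the mean of 2 arrays as a bar. TUB1 is higher in both lines, TRM24 is high in miR172a at 126.4 and 120.5, and TUB5 and NET3A have miR164b above and miR172a below vector.

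TUB5 (AT1G20010), another beta-tubulin gene, separated the lines. It read 1133.9 and 1182.4 in vector, 1352.5 and 1416.1 with miR164b, and 949.1 and 892.8 with miR172a. No array of any group overlapped those of another group: miR164b was the highest and miR172a the lowest. The lines differed by a log2 of 0.58 ± 0.08 (adjusted p = 0.020), and neither line passed against vector (log2 0.25, adjusted p = 0.205 in miR164b, and log2 -0.33, adjusted p = 0.092 in miR172a). The TUB5 call between the lines was lost without any one of the 4 arrays compared, at adjusted p = 0.116 and 0.140 without miR164b replicate 1 or 2 and 0.078 and 0.090 without miR172a replicate 1 or 2, and with an offset of 1 (adjusted p = 0.052) or the 25S control level as a term (adjusted p = 0.090).

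The other 3 beta-tubulin genes did not pass in any comparison. TUB6 (AT5G12250) read 748.1 and 727.7 in vector, 918.9 and 955.7 with miR164b, and 806.3 and 950.6 with miR172a, so the 4 arrays of the lines lay above vector (log2 0.34, adjusted p = 0.183, and log2 0.24, adjusted p = 0.263). TUB9 (AT4G20890), a gene known for expression in pollen, read 960.0 and 927.6 in vector against 1177.1 and 1287.0 in miR164b (log2 0.38, adjusted p = 0.182). In miR172a TUB9 read 891.9 and 1075.1, on either side of the vector values (log2 0.05, adjusted p = 0.856).

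TUB7 (AT2G29550) was close to level between vector, at 1188.9 and 1168.8, and miR164b, at 1178.7 and 1179.4. The log2 difference was 0.00, with a 95% interval from -0.22 to 0.22. On the miR172a arrays TUB7 read 1063.2 and 951.8, below all other arrays (log2 -0.23, adjusted p = 0.227). Of the 5 beta-tubulin genes, 1 was called in each comparison: TUB1 in both comparisons with vector, where 1.79% (miR164b) and 5.87% (miR172a) of all probe sets were called, and TUB5 between the lines, where 7.14% were.

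The alpha-tubulin genes did not pass in any comparison. TUA6 (AT4G14960) read 2683.8 and 2634.7 in vector, 2785.9 and 3175.4 with miR164b, and 2992.2 and 2894.5 with miR172a. All 4 arrays of the lines were above vector, at log2 differences of 0.16 (95% interval from -0.08 to 0.40) and 0.15 (from -0.09 to 0.38). TUA1 (AT1G64740), known as a pollen alpha-tubulin, read 148.0 and 192.8 in vector, 206.4 and 211.4 with miR164b, and 197.0 and 180.1 with miR172a. Its vector arrays lay further apart than those of either line, and the log2 differences were 0.28 (adjusted p = 0.331) and 0.14 (adjusted p = 0.613). Tubulin genes are close in sequence, and how far each probe set also reads its relatives was not tested.

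The 2 actin genes measured are known for expression in reproductive organs. ACT11 (AT3G12110) read 197.2 and 170.5 in vector, 212.1 and 215.0 with miR164b, and 227.8 and 196.4 with miR172a (log2 0.20 and 0.19, adjusted p = 0.396 and 0.405). The miR172a and vector arrays of ACT11 overlapped. ACT12 (AT3G46520), known from pollen, stayed between 2.0 and 11.3 on all 6 arrays. The array's separate actin control probe sets are described among the values for a closer look.

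**Figure D2:**
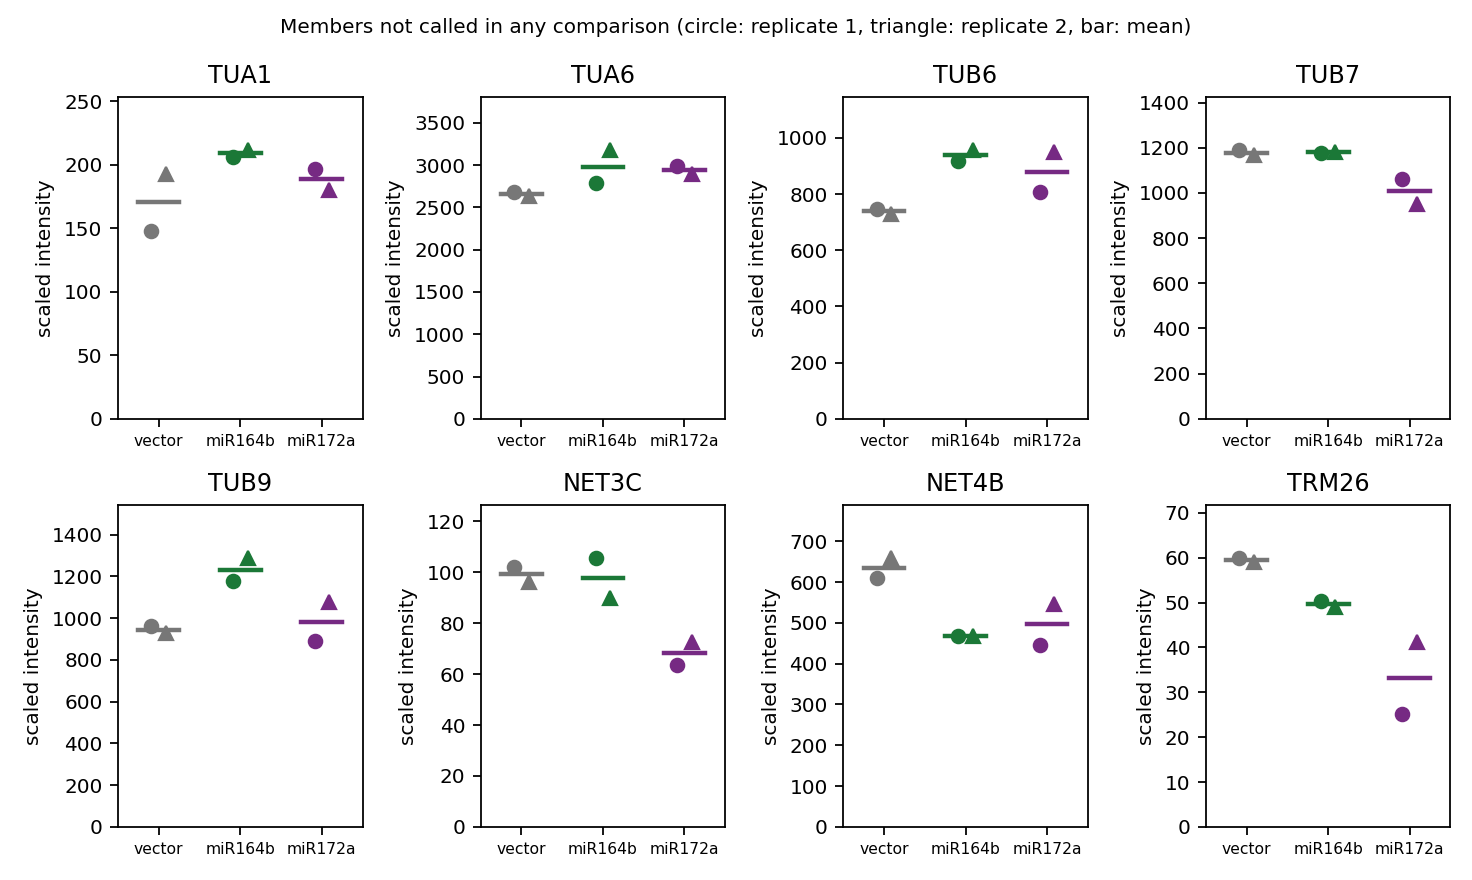
Scaled intensity (linear axis from 0) of 8 members not past the threshold in any comparison, by group, with replicate 1 as a circle, replicate 2 as a triangle and the mean of 2 arrays as a bar. TUB9 has both miR164b arrays above the other 4, NET4B has both lines below vector, and NET3C and TRM26 have the miR172a arrays lowest.

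NET proteins share an actin-binding domain and differ in the membrane they mark. NET3A (AT1G03470), known from the nuclear membrane, was the NET gene past the threshold, between the lines. It read 75.6 on each vector array, 89.6 and 90.6 in miR164b, and 66.0 and 57.0 in miR172a. As with TUB5, the 3 groups did not overlap, with miR164b highest. The log2 difference between the lines was 0.46 ± 0.09 (adjusted p = 0.044), and the differences from vector were 0.21 (adjusted p = 0.292) and -0.24 (adjusted p = 0.202). The NET3A call was lost in 10 of 16 alternatives, more than any other of the members' 6 calls. It was lost whichever of the 6 arrays was left out, and with the 4 arrays of the lines alone. The replicate block (adjusted p = 0.072), an offset of 1 and the 25S control level as a term also lost it. Not all of these are separate checks. Leaving out either vector array keeps the difference between the lines and takes the vector arrays out of the estimate of spread. It is therefore the same fit as the 4 arrays of the lines alone. In NET3A the vector arrays had an SD of 0, so they lower the spread estimated in the main fit. The 25S term is here the same fit as the one without miR172a replicate 2.

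NET3C (AT2G47920), a protein of contact sites between the endoplasmic reticulum and the plasma membrane, read 102.1 and 96.2 in vector, 105.5 and 89.7 with miR164b, and 63.4 and 72.8 with miR172a. Both miR172a arrays were below the other 4 arrays, at a log2 of -0.46 ± 0.11 against vector (adjusted p = 0.078) and 0.43 ± 0.11 for miR164b over miR172a (adjusted p = 0.080). NET4B (AT2G30500), of the tonoplast branch of the family, read 610.8 and 658.4 in vector, 468.7 and 468.0 with miR164b, and 445.6 and 546.8 with miR172a. All 4 arrays of the lines were below vector, and the log2 differences were -0.42 (95% interval from -0.72 to -0.13, adjusted p = 0.154) and -0.35 (from -0.64 to -0.06, adjusted p = 0.165).

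Among the NET1 genes, the class that holds the plasmodesmata protein NET1A, NET1D (AT1G03080) read 119.4 and 96.1 in vector, 79.5 and 85.5 with miR164b, and 108.3 and 102.7 with miR172a (log2 -0.32 in miR164b, adjusted p = 0.229). NET1A (AT3G22790) read 278.0 and 302.7 in vector, and its other 4 arrays lay between 239.4 and 286.0 (log2 -0.16 and -0.08). NET1B (AT4G14760) lay between 140.6 and 188.3 over all 6 arrays, with log2 differences of -0.18 and -0.25. NET1C (AT4G02710) lay between 31.7 and 47.7, with both lines below vector (log2 -0.21 and -0.27, adjusted p = 0.368 and 0.244). None of the NET1 genes passed in a comparison. NET2C, NET2D and NET3B did not exceed 22.4 on any array. NET2C and NET2D belong to a class known from pollen.

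Over the 10 NET genes the median log2 difference was -0.10 in miR164b, with 8 genes below 0, and -0.25 in miR172a, with 9 below 0. Over all probe sets tested the medians were -0.05 and -0.00, with 61.4% and 50.3% below 0. None of the 10 was called against vector, and 2 in miR164b and 3 in miR172a had an unadjusted limma p under 0.05, as did 18.5% and 21.3% of all probe sets.

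The IQD genes had 0 of 15 calls in each of the 3 comparisons, where 1.79%, 5.87% and 7.14% of all probe sets were called. An unadjusted limma p under 0.05 was found for 2, 3 and 3 of them, against 18.5%, 21.3% and 23.8% of all. IQD24 (AT5G07240) and IQD23 (AT5G62070) came nearest, between the lines. IQD24 read 147.2 and 131.5 in vector, 120.3 and 113.6 with miR164b, and 159.3 and 169.5 with miR172a, so its 3 groups did not overlap and miR172a was highest. The lines differed in IQD24 by a log2 of -0.44 ± 0.09 (adjusted p = 0.051). IQD23 read 119.6 and 100.9 in vector, 103.0 and 93.0 with miR164b, and 141.0 and 136.6 with miR172a, with a difference of -0.44 ± 0.11 between the lines (adjusted p = 0.070). Each passed between the lines with an offset of 64, without the 40% dimmest probe sets and with a trended, robust variance (lowest adjusted p = 0.011 for IQD24 and 0.017 for IQD23).

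The highest IQD differences in miR164b were those of IQD19 (AT4G14750), at 78.3 and 74.3 in vector and 95 and 111.7 in miR164b (log2 0.37, adjusted p = 0.175), and of IQD30 (AT1G18840), at 219.1 and 242.9 against 286.5 and 284.5 (log2 0.29, adjusted p = 0.330). IQD15 (AT3G49380) was lowest there, at 18.1 and 24.9 in vector and 12.6 and 11.9 in miR164b (log2 -0.40, adjusted p = 0.174). In miR172a IQD33 (AT5G35670) was lowest, at 20.9 and 29.6 in vector and 17.8 and 12.5 in miR172a (log2 -0.40, adjusted p = 0.213), and IQD27 (AT1G51960) had a log2 of -0.24 (adjusted p = 0.409). IQD15, IQD27 and IQD33 did not exceed 36.2 on any array. The other 8 IQD genes ranged in log2 difference from -0.21 to 0.09 in miR164b and from -0.23 to 0.18 in miR172a, over intensities from 14.5 to 779.3.

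IQD19 and NET1B are neighbours on chromosome 4 with 0 protein-coding genes between them in the TAIR10.1 gene order, a pair seen only after the values were known. Their differences from vector had opposite signs, at log2 0.37 and -0.18 in miR164b and 0.13 and -0.25 in miR172a, and none passed.

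TRM24 (AT5G51850) was the TRM gene past the threshold, and it set miR172a apart. It read 46.8 and 38.0 in vector, 65.4 and 47.7 with miR164b, and 126.4 and 120.5 with miR172a. Both miR172a arrays lay far above the other 4. TRM24 rose in miR172a (log2 1.26 ± 0.15, adjusted p = 0.013), was lower in miR164b than in miR172a (log2 -0.95 ± 0.15, adjusted p = 0.022), and differed from vector in miR164b by 0.31 (95% interval from -0.06 to 0.67, adjusted p = 0.332). The rise in miR172a was lost without vector replicate 1 or 2 (adjusted p = 0.058 and 0.070), without miR172a replicate 1 or 2 (adjusted p = 0.090 and 0.083), with an offset of 1 (log2 1.53, adjusted p = 0.052) and with the 25S control level as a term (log2 1.23, adjusted p = 0.090). The TRM24 call between the lines was lost without any one of the 4 arrays of the lines (adjusted p from 0.069 without miR164b replicate 1 to 0.115 without miR164b replicate 2).

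TRM26 (AT2G17550), by contrast, had its lowest values in miR172a: it read 59.9 and 59.0 in vector, 50.4 and 49 with miR164b, and 25.2 and 41.3 with miR172a. The groups did not overlap, but the 2 miR172a arrays were far apart, and the log2 difference of -0.63 ± 0.16 did not pass (adjusted p = 0.087). TRM22 (AT1G67040) read 299.8 and 303.7 in vector, 243.7 and 237.9 with miR164b, and 269.1 and 268.5 with miR172a, with close replicates and miR164b lowest (log2 -0.31 ± 0.08, adjusted p = 0.129). TRM22 passed in miR164b with an offset of 64, without the 40% dimmest probe sets and with a trended, robust variance (lowest adjusted p = 0.045). TRM34 (AT3G24630) was likewise lowest in miR164b, at 35.6 and 34.7 against 51.0 and 46.5 in vector and 50.5 and 44.9 in miR172a (log2 -0.34 against vector, adjusted p = 0.144).

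TRM20 (AT4G28760) read 407.9 and 394.5 in vector and 353.0 and 319.8 in miR172a (log2 -0.24, adjusted p = 0.202). TRM21 (AT5G43880) read 150 and 124.4 in vector and 160.5 and 156.9 in miR172a (log2 0.19, adjusted p = 0.370). TRM33 and TRM23 had log2 differences of 0.23 and 0.16 in miR164b at intensities of at most 33.5 and 12.7. The other 7 TRM genes ranged from -0.21 to 0.22 in miR164b and from -0.18 to 0.18 in miR172a. They include TRM82 (AT1G03110), named here outside the naming rule because the gene table calls it a tRNA modification gene and not a TON1 Recruiting Motif gene. TRM82 lay between 236.7 and 278.0 on all arrays, and leaving it out changed no count of calls.

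**Figure D3:**
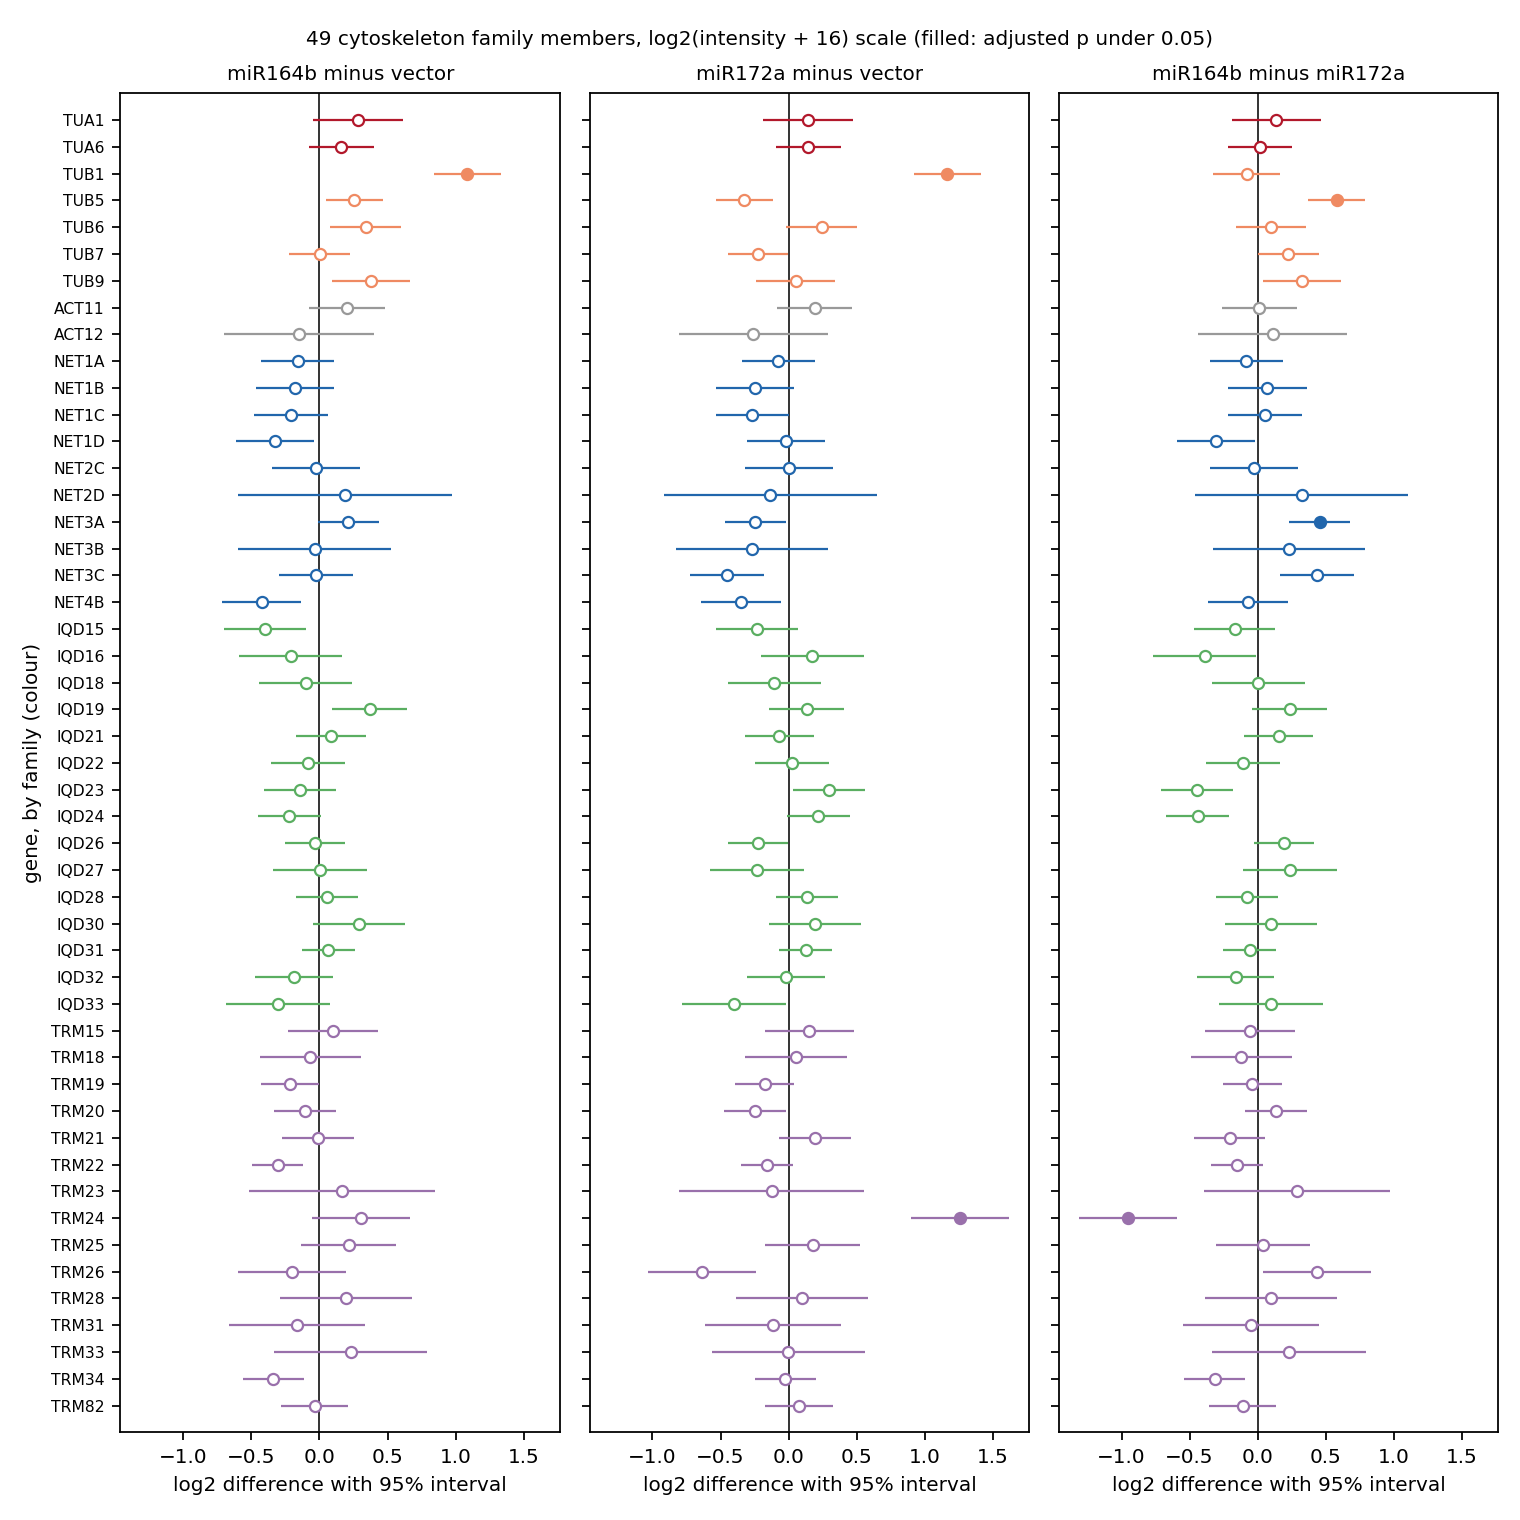
Log2 difference on the log2(intensity + 16) scale (horizontal axis) for each of the 49 members (rows, coloured by family), with 95% limma intervals and filled points at an adjusted p under 0.05. TUB1 stands out in both comparisons with vector, TRM24 in both that involve miR172a, and TUB5 and NET3A are filled between the lines.

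Counted over all 49 members, 1 was called in miR164b against vector, which is 2.04% where 1.79% of all probe sets were called (0.95% higher and 0.84% lower). In miR172a against vector 2 were called, both higher, which is 4.08% where 5.87% of all were called (3.23% higher and 2.64% lower). Between the lines 3 were called, 2 higher in miR164b and 1 lower, which is 6.12% where 7.14% of all were called (3.11% higher and 4.02% lower). With median centring the split of all calls between the lines turned from 708 higher and 915 lower to 991 higher and 652 lower, and the members' split remained 2 and 1. These shares are near the background, so the counts are no result about the families.

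Arrays did not overlap for 29 of 49 members in miR164b against vector (51.6% of all probe sets), for 24 in miR172a against vector (48.8% of all) and for 24 between the lines (53.4% of all). A log2 difference beyond 0.5 in either direction, a limit chosen after the values were seen, was found for 1 member (TUB1) in miR164b, where 5.49% of all probe sets had one. It was found for 3 members in miR172a (TUB1, TRM24 and TRM26), where 8% of all had one, and for 2 between the lines (TUB5 and TRM24), where 8.64% of all had one. The median log2 difference of the 49 members was -0.03, -0.02 and 0.01, against -0.05, -0.00 and -0.06 over all probe sets tested. ACT12, NET2C, NET3B and TRM23 lay below 16 on all 6 arrays, where the offset shrinks differences.

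Other cytoskeleton genes, calmodulin-like genes and genes of mitosis and cytokinesis were taken from lists of 324 symbols, of which 35 genes had a named probe set. The mitosis and cytokinesis list, which is not limited to cytoskeleton genes, gave 10 of the 35. Of the 35, 0 passed in miR164b against vector by limma, where 1.79% of all probe sets did. In miR172a against vector 5 fell and 0 rose, and 7 were higher and 0 lower in miR164b than in miR172a. The mitosis and cytokinesis list held 2 of the 5 and 4 of the 7. An unadjusted limma p under 0.05 was found for 6, 10 and 10 of the 35 in the 3 comparisons, against 18.5%, 21.3% and 23.8% of all probe sets. Over all probe sets 2.64% were lower and 3.23% higher in miR172a against vector, and 3.11% were higher and 4.02% lower between the lines. Of 5 LIM proteins, which bundle actin filaments, WLIM1 (AT1G10200) and WLIM2a (AT2G39900) passed. WLIM1 read 780.8 and 730.2 in vector, 921.3 and 1045.8 with miR164b, and 515.2 and 484.6 with miR172a. It fell in miR172a by 0.58 ± 0.10 on the log2 scale (adjusted p = 0.035) and differed between the lines by 0.95 ± 0.10 (adjusted p = 0.009). WLIM2a read 581.9 and 596.9 in vector, 794.4 and 800.4 with miR164b, and 416.9 and 406.1 with miR172a. It fell in miR172a by 0.50 ± 0.08 on the log2 scale (adjusted p = 0.027) and differed between the lines by 0.93 ± 0.08 (adjusted p = 0.005).

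In WLIM1 and WLIM2a the groups did not overlap and miR164b was highest, the same order as in TUB5 and NET3A. AUR1, AUR2, AUR3 and BUB3.1 of the mitosis and cytokinesis list had that order too, without overlap. The share of all probe sets with that order was not counted. WLIM2b (AT3G55770), a close relative of WLIM2a chosen after the values were seen, stayed between 1395.5 and 1539.0 on all arrays and did not pass (log2 0.00 in miR172a against vector, adjusted p = 0.998). In miR164b against vector WLIM2b, PLIM2a and PLIM2b went the other way, with both miR164b arrays below vector (log2 -0.10, -0.38 and -0.17). PLIM2a and PLIM2b were also below vector in miR172a (log2 -0.36 and -0.21), and neither passed in any comparison. The WLIM1 and WLIM2a calls in miR172a against vector were lost whichever of the 6 arrays was left out. They were also lost with an offset of 1, the replicate block or the 25S control level as a term. Leaving out a miR164b array keeps the difference of miR172a from vector and takes the miR164b arrays out of the estimate of spread. It is the same fit as the one with the 4 arrays compared alone. Between the lines the WLIM2a call was lost without miR164b replicate 1 or 2, and the WLIM1 call without any one of the 4 arrays of the lines and with the 25S control level as a term (highest adjusted p = 0.064 for WLIM2a and 0.079 for WLIM1).

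Among 2 kinesins, KINESIN-12B (AT3G23670), a motor of the phragmoplast midline, read 167.0 and 178.2 in vector, 192.5 and 175.2 with miR164b, and 99.4 and 90.4 with miR172a. It was lower in miR172a than in vector (log2 -0.77 ± 0.09, adjusted p = 0.016) and higher in miR164b than in miR172a (log2 0.85 ± 0.09, adjusted p = 0.010). The former call was lost whichever of the 6 arrays was left out, the latter whichever of the 4 arrays of the lines was. Both calls were also lost with the 25S control level as a term. For the former, leaving out a miR164b array is again the same fit as the 4 arrays compared alone. Of 10 mitosis and cytokinesis genes, 2 fell in miR172a against vector (3xHMG-box2 and TOPII) and 4 were higher in miR164b than in miR172a (AUR1, AUR2, AUR3 and 3xHMG-box2), and each of these 6 calls was lost without any one of the 4 arrays compared. These shares stand against 2.64% of all probe sets lower in miR172a and 3.11% higher between the lines. The other 6 of the 10 did not pass between the lines, among them TOPII (adjusted p = 0.052), and KEU, chosen after its values were seen, had a log2 of -0.01. The part of division genes in the differences of TUB5, NET3A, WLIM1 and WLIM2a between the lines was not tested.

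**Figure D4:**
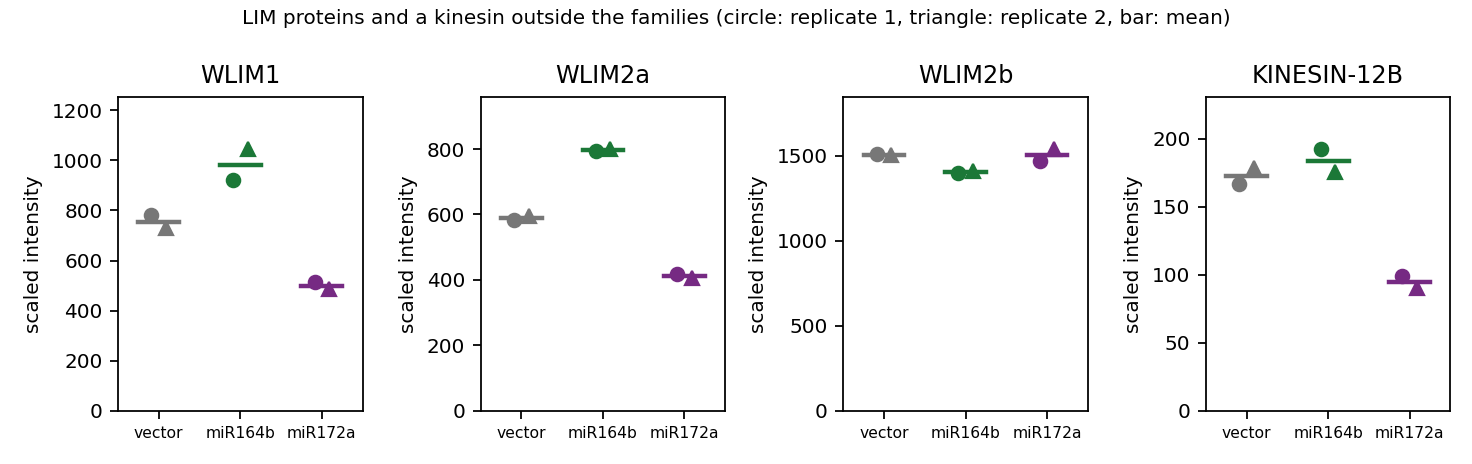
Scaled intensity (linear axis from 0) of 3 LIM protein genes and KINESIN-12B by group, with replicate 1 as a circle, replicate 2 as a triangle and the mean of 2 arrays as a bar. WLIM1, WLIM2a and KINESIN-12B are lowest in miR172a, and WLIM2b lies between 1395.5 and 1539.0 on all arrays.

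The remaining lists had no call in any of the 3 comparisons. They held 3 genes of microtubule plus ends, severing and nucleation, 2 of tubulin folding and 4 of the ARP2/3 and SCAR/WAVE complexes. There were also 6 myosins and 3 calmodulin-like proteins. SPR1, of the microtubule list and named outside the naming rule, read 1222.6 and 1260.8 in vector and between 1372.8 and 1400.9 in the lines. It did not pass against vector (log2 0.15, adjusted p = 0.365 in miR164b, and log2 0.17, adjusted p = 0.278 in miR172a). The arrays of TON1B and WDL3, the other genes of that list, overlapped in all 3 comparisons. For ROP GTPases and their effectors 0 of 37 symbols had a named probe set.

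Correlations across probe sets were 0.991 to 0.994 within a group and 0.981 to 0.987 between groups. Dividing the actin control's 3' by its 5' signal, a ratio that rises when RNA is degraded, gave 2.94 to 3.0 for vector, 1.96 to 2.11 for miR164b, and 2.25 and 3.05 for miR172a, so it was lower on the 3 arrays with a low 25S control than on the other 3. The same ratio of a GAPDH control set was 1.445 and 1.384 for vector, 1.359 and 1.292 for miR164b, and 1.344 and 1.304 for miR172a. In that set it did not split by the 25S level. In the array's other GAPDH control set the 3' signal was 1424.6, 1528.7 and 1430.7 on the arrays with a low 25S control. On vector replicates 1 and 2 and miR172a replicate 2 it was 1910.5, 1668.4 and 1573.3. The 5' signal, in the same order, was 1076.7, 1064.2 and 910.4 against 746.8, 827.4 and 767. The ratio of that set was therefore lower on the arrays with a low 25S control. The part of RNA quality in the TUB1 difference was not tested. Of the tissue markers, CLV3, which marks the stem cells of the shoot meristem, read 59.7 and 42.5 with vector, 64.6 and 82.4 with miR164b, and 50.9 and 44.9 with miR172a. Both miR164b arrays of CLV3 lay above the other 4, as in TUB5, NET3A, WLIM1 and WLIM2a, and CLV3 did not pass (log2 0.42 against vector, adjusted p = 0.256, and 0.48 between the lines, adjusted p = 0.152). In those genes the miR172a arrays also lay below vector, while those of CLV3 overlapped vector (log2 -0.06, adjusted p = 0.885). CLV3 was the 1 measured marker of 8 in the meristem list, and its part in the differences of those genes was not tested. The root hair gene EXPA7 read 33.1 on vector replicate 1 and 4.0 to 5.2 on the other 5 arrays. It was the 1 measured marker of 5 in the root list. TUB1 read 258.3 on vector replicate 1 and 579.9 to 664.3 in the lines. On vector replicate 2, where EXPA7 read 4.8, TUB1 read 284.3. The part of root tissue in the TUB1 values was not tested. The guard cell gene FMA read 27.4 to 47.7. No marker of the epidermis, mesophyll, vasculature or trichome lists had a named probe set.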

How the data were processed

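The deposited table holds 1 linear intensity per probe set and array for 6 arrays. Its mean without the lowest and highest 2% of probe sets was 200 on every array. The summary method is not given in the sources used here, nor is the software. The number of arrays limits the precision. Gene names came from the array annotation, matched by gene ID to the TAIR10.1 gene table for locus tags and gene order. All 49 members matched. After 64 control probe sets were left out, log2(intensity + 16) of 22746 probe sets was fitted with limma 3.58.1 in R 4.3.3, as 1 mean per group over all 6 arrays (lmFit and eBayes, two-sided, 3 residual and 2.69 prior degrees of freedom). Benjamini-Hochberg adjustment ran over the probe sets of each comparison. The method was run on data simulated from its own fitted spread, so that run does not check the assumptions of the fit.

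The members and lists were chosen with earlier results of these data known. Named were every called member, all TUA, TUB, ACT and NET genes, the 2 highest and 2 lowest IQD and TRM genes of each comparison, and called genes of the other lists. Alternatives were other offsets, scalings, filters, variance models and thresholds, a replicate block, the 4 arrays compared alone and leaving out each array. The 25S control level as a term was added after seeing the data. Plots used matplotlib 3.10.9 under Python 3.11.15.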

Additional observations from a re-analysis of the deposited data

Results flagged for a closer look

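Differences between the lines in their departure from vector were flagged because the direct comparison of miR164b with miR172a passed. On the log2 scale, miR164b minus miR172a, they were 0.46 for NET3A, -0.95 for TRM24, 0.58 for TUB5, 0.85 for KINESIN-12B, 0.95 for WLIM1, 0.93 for WLIM2a, 0.71 for AUR1, 0.65 for AUR2, 0.56 for AUR3 and 0.47 for 3xHMG-box2.

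The actin control probe sets took no part in the tests, and 5 of 6 were higher on all 4 arrays of the lines than on both vector arrays. The mean log2 difference of the lines from vector was 0.079 for the 3' probe set of the first control set, 0.26 for its middle and 0.34 for its 5' probe set. In the second control set it was 0.29 for the middle and 0.50 for the 5' probe set, which read 1098.6 and 1113.4 with vector, 1669.4 and 1720 with miR164b, and 1636.7 and 1280.6 with miR172a. The difference was larger toward the 5' end in both actin sets. The GAPDH control sets had this too. In 1 of them the difference was -0.26 for the 3', 0.046 for the middle and 0.26 for the 5' probe set. In the other it was 0.056 for the 3' and 0.15 for the 5' probe set.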

How the results depend on the processing

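The number of probe sets called in miR164b against vector (407) was 103 with an offset of 1, 916 with 64, 1136 without the 40% dimmest probe sets, 1033 with a trended, robust variance, 186 with the replicate block, 144 with the 4 arrays compared alone, 964 at an adjusted p under 0.1 and 5 with the 25S control level as a term, and between 9 and 144 without 1 array. In miR172a against vector (1336) these counts were 406, 2241, 2398, 2269, 795, 359, 2412 and 162, and between 111 and 359 without 1 array. Between the lines (1623) they were 683, 2707, 2970, 2781, 1104 (replicate block), 1018, 2948 and 283, and between 102 and 1018 without 1 array. Members called in miR164b against vector (1) were 0 with an offset of 1 and with the 25S control level, 2 with an offset of 64, without the dimmest probe sets and with the trended variance, and between 0 and 1 without 1 array. In miR172a against vector (2) they were 1 with an offset of 1 and with the 25S control level, 4 with 64 and without the dimmest, 5 at an adjusted p under 0.1, and between 0 and 2 without 1 array. Between the lines (3) they were 0 with an offset of 1 and with the 25S control level, 5 with 64 and with the trended variance, 6 without the dimmest and at an adjusted p under 0.1, and between 0 and 2 without 1 array. Without the dimmest, 33 of 49 members were tested.

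Of 6 calls among 4 members, 0 held under all 16 alternatives, and no called difference changed sign. The TUB1 call in miR172a was lost without miR172a replicate 2 alone. Arrays that share a replicate letter deviated from their group means with correlations of -0.01, 0.10 and 0.08, so the letter is not shown to pair arrays. With the replicate block, members called were 1, 2 and 2, and the NET3A call between the lines was lost (adjusted p = 0.072). No member had a further probe set, so the choice of probe set could not matter.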
